A study of Mus musculus with 23 samples.

Results

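The transcription factor NRF2 and the antioxidant and detoxifying enzymes around it were examined in 23 murine pancreatic ductal adenocarcinoma (PDAC) cell lines, each hybridised to 1 Affymetrix array of the mouse genome. The list held 40 genes, of which 37 were measured: Nfe2l2, which encodes NRF2, its inhibitor Keap1, and the genes of NRF2 targets, of NADPH supply, of iron storage, of glutathione transferases, of aldehyde dehydrogenases, and of peroxidases, superoxide dismutases and catalase. The genes were chosen by symbol, and each gene is given by the probe set selected on its mean signal over the 23 lines, the highest of those annotated with that symbol alone, so a high mean level is no result here. G6pdx had no probe set with its symbol, and Ftl1 and Prdx1 had only probe sets that also carry other symbols, so these 3 genes have no value. The whole array held 45037 probe sets that are not controls.

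The lines were low-passage cultures without treatment. They were named by a prefix and a number, and the number was taken as the mouse: 12 names had the prefix PPT, taken as primary tumour, and 11 had another prefix (ASC, HEP, LN1, PUL or B, the last of which the labels and the study leave without an explanation). The 23 lines came from 14 mice, and 5 mice gave 14 of them, so lines of 1 mouse are not independent. The line B-152727 was taken with mouse 15272. A genotype is listed for 13 lines, of which 10 carried Ptf1a Cre and 3 Pdx1-Cre, and 6 of the 13 also carried Trp53 R172H. For the other 10 lines the genotype is not given in the sources used here. A line is 1 culture from 1 lesion, with no repeat array, so every spread below is between lines.

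NRF2 is held in the cytoplasm and sent for degradation by KEAP1. Oxidants and electrophiles modify KEAP1, NRF2 then accumulates, and it binds the antioxidant response element together with small MAF proteins. Its targets make glutathione, regenerate thioredoxin and glutathione, supply NADPH, store iron and conjugate or oxidise reactive compounds. The array measures mRNA, whereas NRF2 is controlled largely at the protein level.

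To show where the programme can be read in the genome, the promoters of the members were searched for the core of the antioxidant response element, TGACNNNGC on either strand, where N is any base. Promoter windows (250 bases before the start of transcription to 50 after it, RefSeq, GRCm38.p6) were at hand for 32 of the 40 listed genes and not for Hmox1, Gclc, Gsr, Gsta4, Gstt2, Aldh1a3, Aldh3a1 and Sod3. The letters occurred in 12 of the 32 genes (37.5%), and in 14% of all 27025 genes with a window. The 12 were Gsta3, Nfe2l2, Srxn1, Gstm5, Gclm, Prdx1, Pgd, Mgst1, Me1, Txnrd1, Sod1 and G6pdx. A match is a description of letters, not a site of binding, and the window leaves out elements farther upstream.

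Of these, 5 are printed because the results below turn on them: Nfe2l2 itself, Gsta3 and Me1, whose signal changed with the epithelial state of the lines, and Gclm and Txnrd1, for which no change was called. Each is written 5′ to 3′ on the strand of the gene, with the match in capitals. Positions count from 0 at the start of transcription.
Nfe2l2, chr2:75704859-75704913, minus strand, match at -240: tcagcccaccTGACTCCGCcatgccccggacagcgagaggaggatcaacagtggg
Gsta3, chr1:21240428-21240508, plus strand, match at -121: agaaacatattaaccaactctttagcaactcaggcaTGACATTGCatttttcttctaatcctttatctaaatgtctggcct
Me1, chr9:86695912-86695956, minus strand, match at -6: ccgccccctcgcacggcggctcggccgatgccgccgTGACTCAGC
Gclm, chr3:122245387-122245467, plus strand, match at -134: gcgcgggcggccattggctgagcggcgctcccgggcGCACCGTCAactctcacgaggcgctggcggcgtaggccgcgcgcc
Txnrd1, chr10:82859078-82859158, plus strand, match at -92: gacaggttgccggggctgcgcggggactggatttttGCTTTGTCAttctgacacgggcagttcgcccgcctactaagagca
In Gclm and Txnrd1 the match lies on the other strand and so reads as the reverse complement. The match of Me1 also holds the letters TGACTCA, the AP-1 motif, so the 2 motifs overlap there.

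The epithelial state was described by an EMT score for each line, the mean log2 signal of 8 epithelial genes (Cdh1, Epcam, Cldn7, Esrp1, Rab25, Grhl2, Krt19 and Ocln) minus that of 6 mesenchymal genes (Vim, Zeb1, Zeb2, Cdh2, Fn1 and Twist1). A high score is epithelial, and no member is part of it. The score ran from -6.44 in ASC-5193 to 1.36 in PPT-15272. Its largest gap, 1.93 units, lay between ASC-53909 and HEP-5123 and left 6 lines below it (ASC-5193, PPT-16992, PPT-17728, PPT-3250, PPT-5320 and ASC-53909) and 17 above it. A signal below 3.76, the array median, that is the median over every value of every array, is not shown to stand above background. Of the 4 measured duct markers, Krt19 had a median of 11.95, Krt7 of 11.67 and Sox9 of 7.28, but Cftr had a median of 3.29, under the array median, and Krt7 was 2.09 in its lowest line. Krt19 and Krt7 rose with the score, and Krt19 is part of it. The other duct markers were not called: Sox9 had a downward slope of -0.14 ± 0.067 (limma, adjusted p = 0.197) and Cftr a slope of 0.26 ± 0.14 (limma, adjusted p = 0.256).

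Markers of other cell types moved with the score. The mean of 6 fibroblast genes (Pdgfra, Pdgfrb, Dcn, Lum, Col1a1 and Acta2) ran from 5.49 to 9.91 in the 6 lines below the gap and from 2.98 to 8.50 in the 17 above it (Spearman's rho with the score -0.59). Of the leukocyte markers, the defining Ptprc stayed under the array median in all 23 lines, whereas Cd14 ran from 6.19 to 10.91 and rose with the score (slope 0.45 ± 0.087; limma, adjusted p = 0.00182), and Csf1r (4.32 to 6.12), Cd68 (3.92 to 7.37) and Lyz2 (3.36 to 8.54) were not called. The summed log2 signal of these 5 ran from 21.34 to 28.08 in the 6 lines and from 23.36 to 29.09 in the 17. Of the endothelial markers, Pecam1 and Cdh5 stayed under the array median in all lines and Kdr ran from 3.65 to 4.78. In a bulk extract, fewer cells of a type and less RNA per cell cannot be told apart, and the part of other cells in the results by score was not tested. As signs of RNA quality, the 3′ minus 5′ signal of Gapdh ran from -0.08 to 0.07 and had a rho of -0.43 with the score, and that of actin ran from 0.15 to 0.58 with a rho of -0.19. With the Gapdh value as a covariate, the calls with the score over the array were 2528 in place of 4619, and all 8 members called without it were called.

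With the score as a continuous measure and the mouse as a random block, 8 of the 37 measured members changed with the epithelial state, all 8 upward, against 10.3% of all probe sets called (4.97% upward and 5.29% downward). They were the glutathione transferases Gsta4, Gsta3, Gstt2 and Gstt1, the glutathione reductase Gsr, the glutathione synthesis enzyme Gclc, the NADPH producer Me1 and the glutathione peroxidase Gpx2. No member was called downward, and 29 of 37 were not called in either direction. The median slope was 0.028 log2 per unit of score over the 37 members and 0.0018 over all probe sets. The test was limma's moderated test, with p-values adjusted by Benjamini-Hochberg over the 45037 probe sets. With the mouse as a fixed block, that is between lines of 1 mouse alone, no member and 35 probe sets of the array were called. The slopes there were 0.74 ± 0.37 for Gsta4, 0.21 ± 0.085 for Gsr, 0.39 ± 0.17 for Gstt1, 0.46 ± 0.15 for Gstt2, 0.33 ± 0.089 for Gpx2, 0.25 ± 0.31 for Gsta3, 0.094 ± 0.12 for Gclc and 0.040 ± 0.12 for Me1. Within the 17 lines above the gap, a fit added after seeing the data, 0 members were called against 0.0622% of all probe sets, while 9 of 37 had an unadjusted p under 0.05 against 9.13%. Within these 17 lines the slopes of Gsta4 (0.18 ± 0.20), Gsta3 (0.19 ± 0.28), Gclc (0.062 ± 0.12) and Me1 (0.030 ± 0.10) were smaller than over all 23, and those of Gstt2 (0.63 ± 0.13) and Gpx2 (0.40 ± 0.081) were larger. With each array centred on its own median, 7 members were called, all upward and without Gclc, and the calls over the array were 1500 upward and 2969 downward in place of 2238 and 2381.

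**Figure D1:**
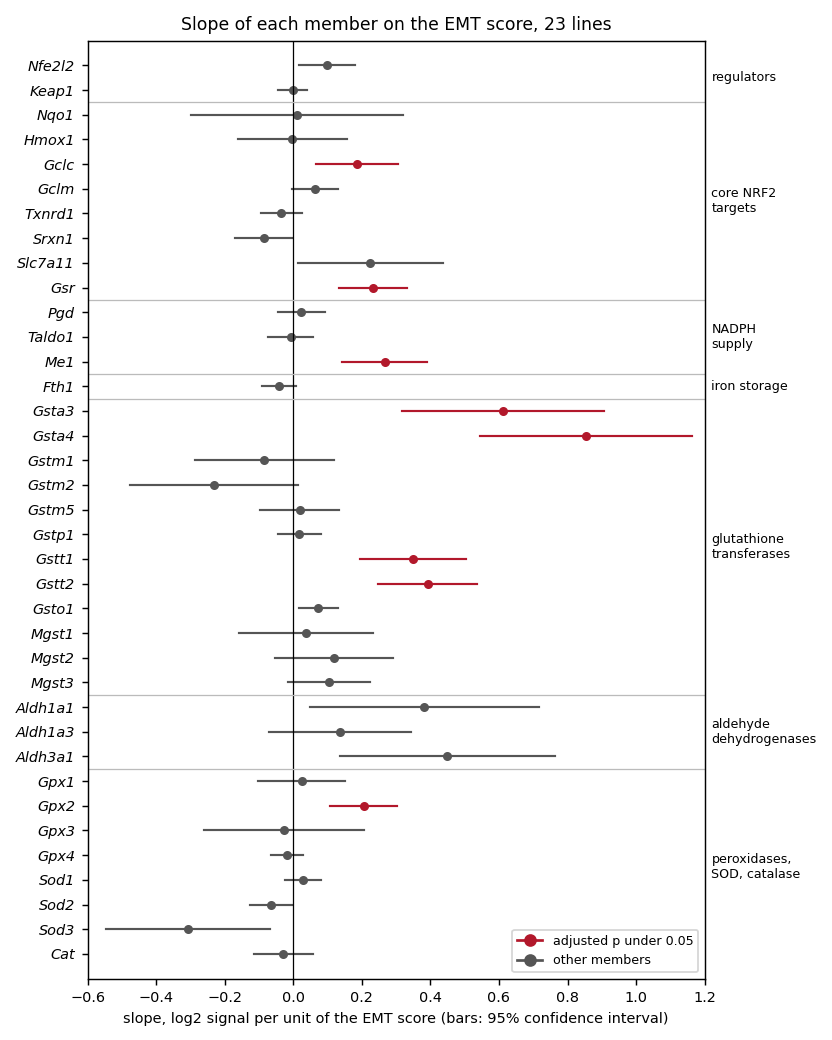
Slope of each of the 37 measured members on the EMT score over 23 lines, in log2 signal per unit of score, with 95% confidence intervals as bars and the genes grouped by role. The 8 members with an adjusted p under 0.05 are red and all lie above 0, from 0.19 for Gclc to 0.85 for Gsta4.

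Neither regulator was called with the score. Nfe2l2 had another probe set, with a mean of 2.83, under the array median. By the selected probe set, Nfe2l2 had 9.47 in ASC-5193 as the lowest, a median of 10.74 and 11.39 in PUL3-53631 as the highest log2 signal. It ran from 9.47 to 10.74 in the 6 mesenchymal lines and from 10.11 to 11.39 in the 17 others, so the ranges overlapped. Its slope of 0.099 ± 0.040 (SE) was not called (limma, adjusted p = 0.120). Without PPT-15272, the line with the highest score, the slope was 0.14 and passed (limma, adjusted p = 0.0114), a fit chosen after seeing the data. Nfe2l2 also passed in the planned fit that left out mouse 15272, to which this line belongs. Keap1, the substrate adaptor that hands NRF2 to the ubiquitin ligase, ran only from 7.42 to 8.07 and had a slope of -0.0017 ± 0.021. Across lines the 2 regulators had a Pearson's r of 0.25 with each other.

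Nqo1, a quinone reductase and the textbook readout of NRF2, spanned the largest range of the core targets. It was lowest in PPT-16992 at 3.14, had a median of 5.65 and was highest in HEP2-53631 at 8.94. The next lowest line was PPT-15272 at 3.16, the most epithelial of all. PPT-16992, by contrast, is among the most mesenchymal, so low Nqo1 was found at both ends of the score. Of the 23 lines, 5 lay below the array median of 3.76 and are not shown to express Nqo1 above background. High signals also occurred on both sides, with 7.47 in PPT-5320 and 7.32 in ASC-5193 below the gap. The slope was 0.011 (95% confidence interval -0.30 to 0.32) and turned to -0.0016 when each array was centred on its own median.

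Slc7a11, the cystine importer that feeds glutathione synthesis, was lowest in PPT-16992 at 2.92 and highest in HEP2-53631 at 7.55, with a median of 5.12. Both ends were therefore the same lines as for Nqo1, and the 2 genes had a Pearson's r of 0.52 over 23 lines. The slope of Slc7a11 was 0.22 ± 0.10 (limma, adjusted p = 0.174), not a call. PPT-5748 (7.27) and ASC-5193 (6.17) had high signals at low scores. PPT-16992 lay below the array median and is not shown to express Slc7a11 above background.

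Of the 8 core targets, Gclc and Gsr rose with the score, against 4.97% of all probe sets, and 6 were not called. Gclc, the catalytic subunit of glutamate-cysteine ligase, ran from 7.89 in ASC-5193 over a median of 8.94 to 10.77 in PPT-5671. In the 6 lines below the gap it lay between 7.89 and 8.78, and in the 17 above it between 8.16 and 10.77. Its slope was 0.19 ± 0.058 (limma, adjusted p = 0.0405), the weakest of the 8 calls. It was lost when any 1 of 9 mice was left out, with an adjusted p of up to 0.140. Another probe set of Gclc gave 0.24 ± 0.061 (limma, adjusted p = 0.0127). Gclm, the modifier subunit of the same enzyme, had a narrow range, from 9.45 in HEP-5123 to 10.80 in PUL-15272, and a slope of 0.063 ± 0.033 (limma, adjusted p = 0.246). Whether the slopes of Gclc and Gclm differ from each other was not tested.

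Gsr, which reduces oxidised glutathione with NADPH, was lowest in ASC-5193 at 8.16, had a median of 9.85 and was highest in HEP2-53631 at 11.11. It lay between 8.16 and 9.79 in the 6 lines below the gap and between 8.68 and 11.11 above it. The slope was 0.23 ± 0.048 (limma, adjusted p = 0.00265), a change of 1.82 log2 over the range of the score, and it passed with each of the 14 mice left out in turn. With 1 mean for each mouse it was 0.20 ± 0.062 and no longer called (limma, adjusted p = 0.0722). The other probe set of Gsr gave 0.24 ± 0.045.

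The remaining core targets did not pass. Hmox1, the haem oxygenase, had its lowest signal in HEP-5123 (4.34), a median of 6.23 and its highest in PPT-15272 (7.61), the line in which Nqo1 was near its lowest. Its slope was -0.0031 ± 0.077, with either sign among the alternatives. Txnrd1, thioredoxin reductase, and Srxn1, which repairs overoxidised peroxiredoxins, had slopes of -0.035 ± 0.029 and -0.086 ± 0.040 (limma, adjusted p = 0.504 and 0.186). Txnrd1 ran from 9.73 in HEP2-53631 to 10.85 in PPT-16992, the reverse order of Nqo1 and Slc7a11 at the ends. Srxn1 was highest in the mesenchymal line ASC-53909 at 8.39 and lowest in HEP-5123 at 6.31.

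The 8 core targets did not move as 1 block. Over the 23 lines, the 28 pairs among them had a median Pearson's r of 0.084, from -0.44 for Srxn1 with Gsr to 0.54 for Gclc with Gsr, and 14 of the 28 were above 0. These are descriptions over lines that share mice. The mean of the 8 centred core targets was highest in HEP2-53631 (0.97 log2 above the mean line), then in PUL-15272 (0.61) and B-6051 (0.45). It was lowest in HEP-5123 (-0.83), PPT-16992 (-0.62) and PPT-17728 (-0.48). This core mean had a Pearson's r of 0.49 and a Spearman's rho of 0.53 with the EMT score, yet ASC-5193, the most mesenchymal line, lay above 0 at 0.17 and the most epithelial line, PPT-15272, below it at -0.26.

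**Figure D2:**
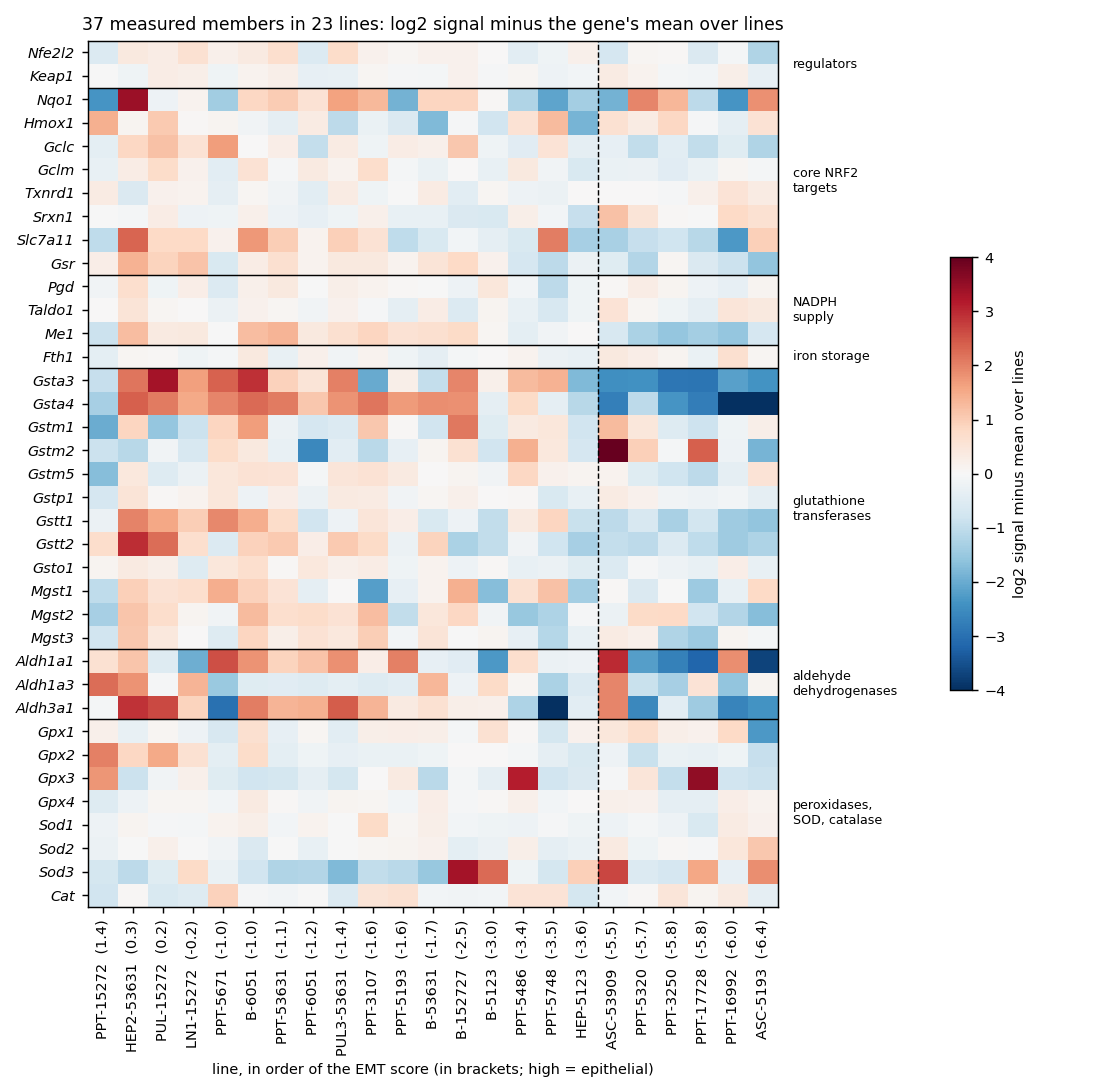
Log2 signal of the 37 measured members minus each gene's mean over the 23 lines, with the genes in rows by role and the lines in columns in order of the EMT score, given in brackets. Right of the dashed line are the 6 lines below the gap in the score; there Gsta3, Gsta4, Gstt1 and Me1 are below their means in all 6, while Nqo1 and Hmox1 are not.

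Among the 3 measured genes grouped here under NADPH supply, only Me1 was called, against 10.3% of all probe sets. Me1, the cytosolic malic enzyme, ran from 8.37 in PPT-3250 over a median of 10.00 to 11.26 in PPT-53631. The 6 lines below the gap lay between 8.37 and 9.26, and of the 17 lines above it only PPT-15272 (9.04) reached into that range, so the groups nearly separated. The slope was 0.27 ± 0.060 (limma, adjusted p = 0.00553), and another probe set gave 0.27 ± 0.063. Within the 17 lines above the gap it was 0.030 ± 0.10. Pgd of the oxidative pentose phosphate pathway (10.35 to 12.04) and Taldo1 of its non-oxidative arm (10.07 to 11.24) had slopes of 0.023 and -0.0076, neither called. Fth1, the ferritin heavy chain, ran from 12.49 to 13.53 and had a slope of -0.042 ± 0.024.

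The glutathione transferases, which join glutathione to electrophiles, differed widely among themselves. Of 12 measured, 4 rose with the score, against 4.97% of all probe sets, and 0 fell, against 5.29%: Gsta3 and Gsta4 of the alpha class and Gstt1 and Gstt2 of the theta class. Gsta4, which acts on the lipid peroxidation product 4-hydroxynonenal, had the largest spread of all members (SD 2.50, rank 178 of 45037 probe sets). It was 3.27 in ASC-5193, had a median of 11.12 and reached 12.44 in HEP2-53631. The 6 lines below the gap ran from 3.27 to 9.02 and the 17 above it from 8.73 to 12.44, with the overlap due to PPT-15272 at 8.73 and HEP-5123 at 8.96 against PPT-5320 at 9.02. The slope was 0.85 ± 0.15 (95% confidence interval 0.54 to 1.16; limma, adjusted p = 0.000721). ASC-5193 lay below the array median and is not shown to express Gsta4 above background.

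Gsta3, an alpha class transferase best known from the liver, was the 1 of 37 members whose values in the 6 lines below the gap and in the 17 above it did not overlap, against 1.15% of all probe sets, a share near the background. It lay between 2.43 and 3.19 in the 6 lines, all below the array median, and between 3.32 and 8.68 in the 17, with PPT-3107 lowest of these and PUL-15272 highest. In 8 of the 23 lines it was below the array median, PPT-3107 and HEP-5123 (3.58) included, so the separation itself lies among signals not shown to stand above background. The slope was 0.61 ± 0.14 (limma, adjusted p = 0.00692). Gsta3 and Gsta4 had a Pearson's r of 0.74 over lines.

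The theta class followed. Gstt1 ran from 3.82 in ASC-5193 over a median of 5.20 to 7.41 in HEP2-53631, with 3.82 to 4.78 in the 6 lines below the gap and 4.43 to 7.41 above it. Gstt2 ran from 2.86 in PPT-16992 over 4.05 to 7.25 in HEP2-53631, and 11 of 23 lines were below the array median. Their slopes were 0.35 ± 0.075 and 0.39 ± 0.070 (limma, adjusted p = 0.00400 and 0.000819). Gstt2 kept a slope of 0.63 ± 0.13 within the 17 lines above the gap, where its p was 0.000200 before and 0.118 after limma's adjustment over the array. It ranged there from 2.97 in HEP-5123 to 7.25 in HEP2-53631.

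**Figure D3:**
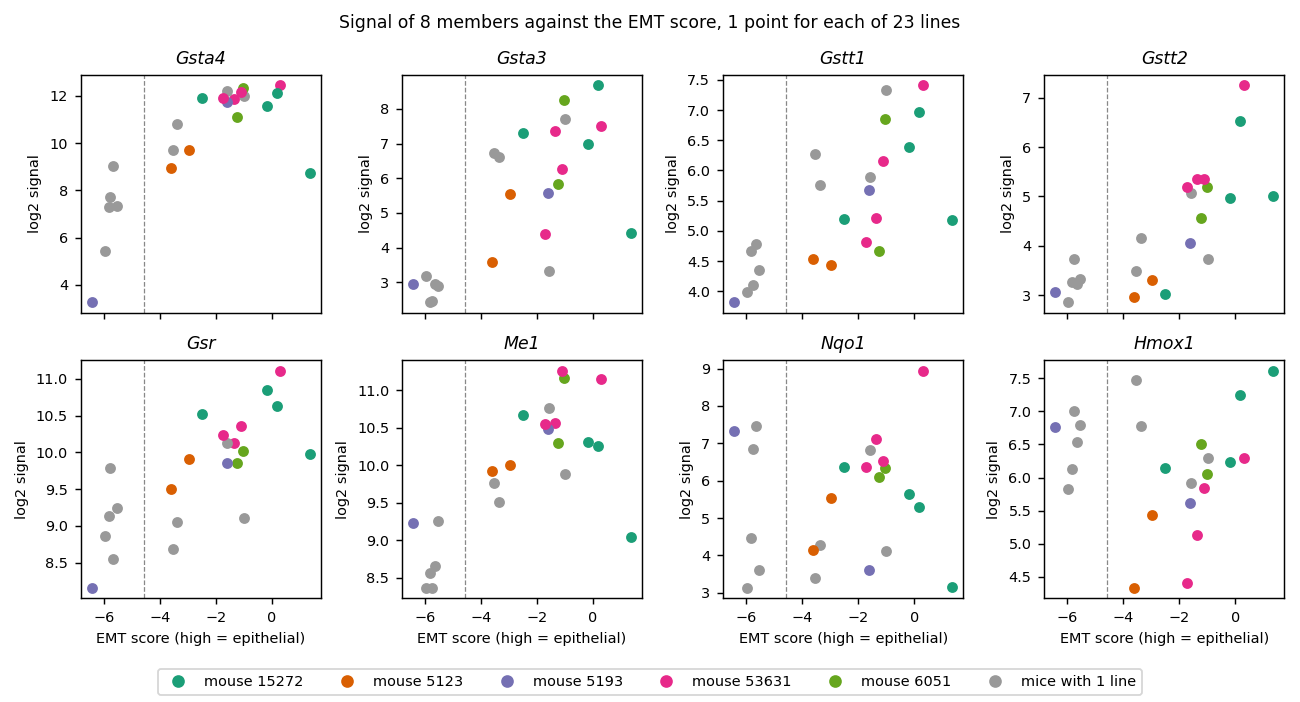
Log2 signal of 8 members against the EMT score, 1 point for each of 23 lines, coloured by mouse where a mouse gave more than 1 line; the dashed line marks the gap in the score. Gsta4, Gsta3, Gstt1, Gstt2, Gsr and Me1 rise with the score, PPT-15272 at the right end lies below the trend in Gsta4, Gsta3 and Me1, and Nqo1 and Hmox1 show no order along the score.

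The mu, pi, omega and microsomal transferases did not pass. Gstm2 was the most variable of them, from 2.95 in PPT-6051 over a median of 5.31 to 9.56 in ASC-53909, with a downward slope of -0.23 ± 0.12 (limma, adjusted p = 0.237). Gstm1 ran from 6.83 in PPT-15272 to 10.93 in B-152727, 2 lines taken as 1 mouse; its probe set can also bind related transcripts of the mu class. Mgst1 ran from 8.03 in PPT-3107 to 11.68 in PPT-5671. Gstp1 (11.52 to 12.72) and Gsto1 (11.69 to 12.88) varied little. Gsto1 had a slope of 0.073 ± 0.028 (limma, adjusted p = 0.0960).

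The 3 aldehyde dehydrogenases ranged widely and none was called. Aldh3a1, which oxidises aromatic and medium-chain aldehydes, was 3.40 in PPT-5748, had a median of 7.85 and reached 10.52 in HEP2-53631. Its slope of 0.45 ± 0.15 came close to the threshold (limma, adjusted p = 0.0612) and passed in 7 of the alternatives, among them the one without PPT-15272. The low lines were not all mesenchymal: PPT-5748 and PPT-5671 (4.63) lay above the gap, while ASC-53909 below it had 9.56. The signal of Aldh3a1 in PPT-5748 was below the array median and is not shown to stand above background. Aldh1a1, a retinal dehydrogenase often used as a stem cell marker, ran from 2.06 in ASC-5193 over 6.03 to 8.75 in ASC-53909. Both of these are lines with the prefix ASC and low scores, so its ends lay on the same side of the gap (slope 0.38 ± 0.16; limma, adjusted p = 0.141). Aldh1a3, the other retinal dehydrogenase, ran from 4.69 in PPT-16992 to 8.48 in PPT-15272.

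Of the 8 peroxide and superoxide enzymes, 1 rose with the score (12.5%, against 10.3% of all probe sets called either way), a share near the background. Gpx2, the epithelial glutathione peroxidase, was 3.56 in ASC-5193, had a median of 4.28 and reached 6.48 in PPT-15272. The 6 lines below the gap lay between 3.56 and 4.29 and the 17 above it between 3.88 and 6.48. The slope was 0.21 ± 0.047 (limma, adjusted p = 0.00634), and within the 17 lines it was 0.40 ± 0.081 (limma, p = 0.000122, adjusted p = 0.101). Without mouse 15272, whose lines hold 2 of the 3 highest values, the slope fell to 0.12 and was no longer called (limma, adjusted p = 0.0992). With 1 mean for each mouse it was 0.12 as well and not called (limma, adjusted p = 0.147).

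Sod3, the extracellular superoxide dismutase, had the only sizeable downward slope of this group, -0.31 ± 0.12 (limma, adjusted p = 0.0935). Its signal was below the array median in 16 of 23 lines and reached 6.91 in B-152727, 6.27 in ASC-53909 and 5.87 in B-5123. A second probe set of Sod3 had a slope of -0.11 and passed narrowly (limma, adjusted p = 0.0460). Gpx3, the secreted glutathione peroxidase, was near its median of 5.17 in most lines but was 9.08 in PPT-17728 and 8.66 in PPT-5486. Gpx1, Gpx4, Sod1, Sod2 and Cat, the housekeeping enzymes of peroxide and superoxide removal, had median signals from 9.52 to 11.97. Gpx1 stood out in a single line, with 9.21 in ASC-5193 against 10.81 or more in the other 22.

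As a whole the list was more variable than the array. The median SD over lines was 0.75 for the 37 members and 0.28 for all probe sets, and 14 of 37 members had an SD over 1 against 6.24% of all probe sets. The 10 most variable were Gsta4, Gsta3, Aldh3a1, Aldh1a1, Nqo1, Sod3, Gstm2, Gpx3, Gstt2 and Slc7a11. The rule keeps the brightest probe set of a gene, and a probe set above background has more room to vary, so this difference is a description only.

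Likeness to the core mean was then taken for each member, leaving the member itself out. Gstt2 was the most alike, with a Pearson's r of 0.75 and a rho of 0.65 over 23 lines, and an r of 0.85 over 14 mouse means. Slc7a11 (r = 0.67), Gstt1 (0.61), Mgst2 (0.58), Gsta3 (0.57) and Me1 (0.57) followed. Nfe2l2 had an r of 0.41 and Nqo1 of 0.32. At the other end were Txnrd1 (-0.41), Gpx3 (-0.33) and Gpx1 (-0.30). Outside the list, among 14261 probe sets with 1 symbol, a mean above the median and an SD of at least 0.3, the 8 genes most like the core mean were Lss (r = 0.82), a sterol synthesis enzyme, Rusc1 (0.81), Itpk1 (0.81), an inositol phosphate kinase, Rdh11 (0.81), a retinol dehydrogenase, Gm3336 (0.80), Nsd3 (0.80), a histone methyltransferase, Golph3l (0.80) and Slc6a9 (0.78), a glycine transporter. These were picked as the highest of many and are a description only. Some of them were dim. Gm3336 ran from 3.09 to 6.59, Lss from 3.6 to 4.98, Golph3l from 3.69 to 5.94 and Nsd3 from 3.71 to 5.19. Each of these was under the array median in its lowest line, where expression above background is not shown. Rusc1, Itpk1, Rdh11 and Slc6a9 were above the array median in every line.

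The question whether lines from primary tumours and other lines differ in the programme was put with the prefix fit, other prefix minus PPT, again with the mouse as a random block. No member and no probe set was called (0% of 45037; smallest adjusted p over the array 0.722). At an unadjusted p under 0.05 there were 7 of 37 members, against 3.66% of all probe sets, and none passed the adjustment (limma, adjusted p = 1.00 for each). Cat was lower in the 11 other lines, 9.27 ± 0.26 (SD) against 9.83 ± 0.44 in the 12 PPT lines, and had a difference of -0.47 ± 0.15 in the fit (limma, unadjusted p = 0.00462). Aldh3a1 was 8.63 ± 1.59 in the other lines and 6.70 ± 1.90 in PPT lines, with a fitted difference of 1.58 ± 0.68 (limma, unadjusted p = 0.0283). The other 5 were Mgst3, Sod3, Gpx4 and Taldo1, higher in the other lines, and Gpx3, lower in them. Nqo1 was 6.07 ± 1.48 against 5.00 ± 1.63, with a fitted difference of 1.15 ± 0.59 (limma, unadjusted p = 0.0641), not among the 7. For a difference in the slope on the score between prefixes, the interaction had 0 calls over the array. At an unadjusted p under 0.05 there were 5 of 37 members (Nfe2l2, Gstt2, Gsr, Gsta4 and Gstt1), against 5.46% of all probe sets. The smallest p was that of Nfe2l2, with an interaction of 0.21 ± 0.063 (limma, p = 0.00279, adjusted p = 0.830).

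Lines of 1 mouse resembled each other. Over the 37 centred members, the median Pearson's r was 0.49 for the 15 pairs of lines of 1 mouse and -0.099 for the 238 other pairs. For all probe sets these medians were 0.42 and -0.085. In the F-test between the 5 mice with several lines, 0 members were called, against 2.94% of all probe sets. At an unadjusted p under 0.05 there were 9 of 37 members against 19.2% of all probe sets, a share near the background. Mgst2, a microsomal transferase, had the smallest p (limma, adjusted p = 0.117): its mean was 10.42 ± 0.39 (SD, n = 2) in the lines PPT-6051 and B-6051 and 10.13 ± 0.29 (n = 4) in the lines of mouse 53631, against 8.09 ± 0.51 (n = 2) in PPT-5193 and ASC-5193. Without PPT-15272, Mgst2 passed as 1 of 37 members, with 996 of 45037 probe sets called. Without PPT-5193, ASC-5193 alone stands for that mouse, so that fit is not read for single members.

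For single genes, lines of 1 mouse could still lie far apart. In a pair from 1 mouse the signal of Gsta4 was 11.75 in PPT-5193 and 3.27 in ASC-5193, whose scores were -1.62 and -6.44. Nqo1 went the other way in this pair, with 3.61 in PPT-5193 and 7.32 in ASC-5193. The pair HEP-5123 and B-5123 differed by less, with Gsta4 at 8.96 and 9.69. These pairs have no replicate, so no test was made.

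In mouse 15272, PPT-15272 was below all 3 other lines in 24 of 37 members, against 23.7% of all probe sets. Nqo1 was 3.16 in PPT-15272 and 5.30 to 6.38 in the other 3. Gsta4 was 8.73 against 11.58 to 12.12, and Gsta3 was 4.42 against 6.99 to 8.68. Gclc, Gclm, Slc7a11, Gsr, Me1 and Nfe2l2 were lowest in PPT-15272 too. The 7 members in which it was highest of the 4 lines were Hmox1, Txnrd1, Aldh1a1, Aldh1a3, Gpx1, Gpx2 and Gpx3. PPT-15272 also had the highest score of all 23 lines, while Gclc, Gsr, Me1, Gsta3, Gsta4 and Gstt1, of which it held the lowest signals of its mouse, had upward slopes over the 23 lines.

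In mouse 53631, HEP2-53631 was above the 3 other lines in 25 of 37 members, against 28.1% of all probe sets, and B-53631 was below them in 20 of 37, against 25.3%. Nqo1 was 8.94 in HEP2-53631 and 6.37 to 7.12 in the others, Slc7a11 was 7.55 against 4.62 to 6.21, and Gstt2 was 7.25 against 5.19 to 5.35. Nfe2l2 did not follow, at 11.05 in HEP2-53631 and 10.85 to 11.39 in the others. Txnrd1 was lowest in HEP2-53631 at 9.73, as were Gstm2 and Gpx4. PPT-15272, HEP2-53631 and B-53631 were singled out after their values were seen, each is 1 array, and no test was made.

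**Figure D4:**
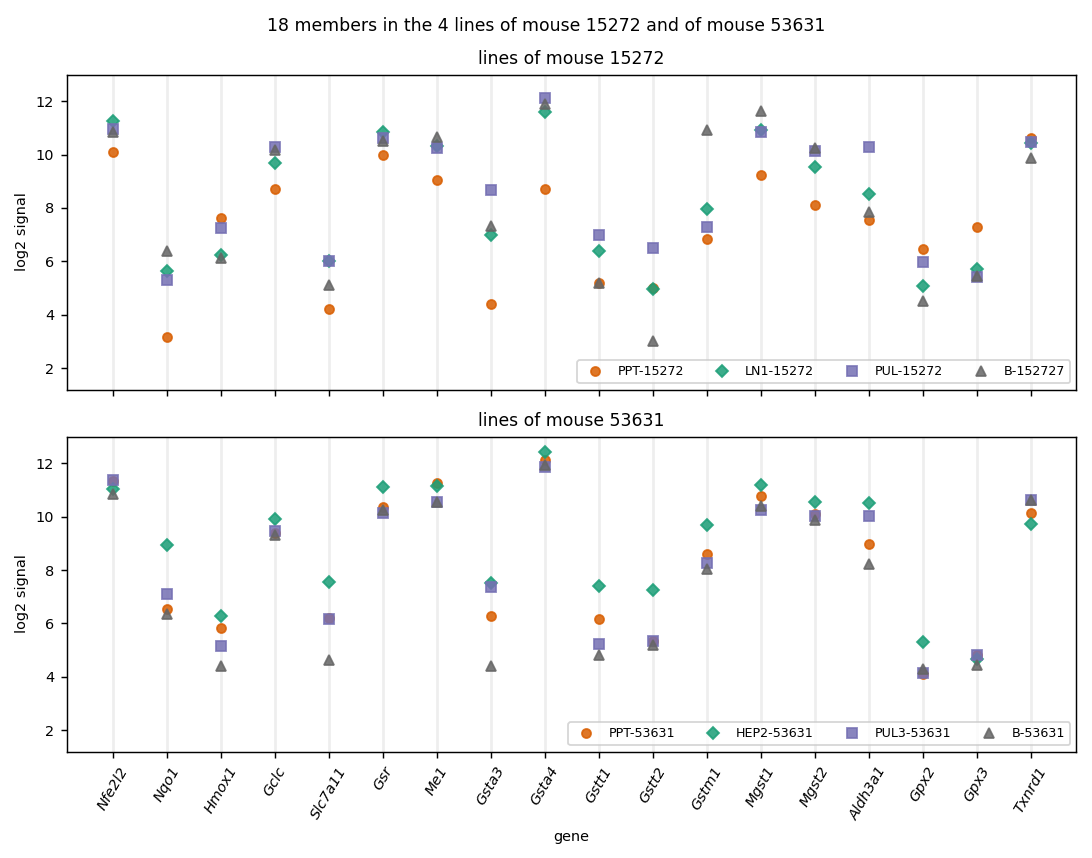
Log2 signal of 18 members in the 4 lines of mouse 15272 (top) and of mouse 53631 (bottom), 1 symbol for each line. PPT-15272 is the lowest of its mouse in Nqo1, Gclc, Slc7a11, Gsr, Me1, Gsta3 and Gsta4, and HEP2-53631 is the highest of its mouse in Nqo1, Slc7a11, Gsr, Gstt1 and Gstt2.

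Other genes of the same pathways were read in the same fits. Of 50 listed, 46 were measured, and with the score 9 rose (against 4.97% of all probe sets), 3 fell (against 5.29%) and 34 were not called. The smallest p-values among those that rose belonged to the efflux pump Abcc3, which exports conjugates (slope 0.71 ± 0.088; limma, adjusted p = 1.47e-05), to the theta transferase Gstt3 (0.45 ± 0.069) and to the pump Abcc4 (0.32 ± 0.059). The kappa transferase Gstk1 (0.55 ± 0.12), the aldo-keto reductase Akr1b8 (0.30 ± 0.067), the NRF2 target Osgin1 (0.35 ± 0.081) and the carbonyl reductase Cbr1 (0.19 ± 0.045) also rose, as did Akr1c13 and Aldh2. The 3 that fell were Gpx8, a peroxidase of the endoplasmic reticulum (-0.57 ± 0.081; limma, adjusted p = 7.45e-05), the peroxiredoxin Prdx4 (-0.19 ± 0.050) and Ggct (-0.26 ± 0.074), of the gamma-glutamyl cycle. Between mice, 2 of the 46 were called, against 2.94% of all probe sets: Cbr1 (limma, adjusted p = 0.0443) and Akr1c14 (0.0485). The NRF2 partners Maff, Mafg and Mafk, the repressor Bach1 and the ligase scaffold Cul3 were not called with the score.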

How the data were processed

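RNA of 23 lines was measured with 1 array per line. The authors deposited normalized and summarised log2 values, 1 for each probe set of an array. Both VSN (in the supplementary methods) and RMA (in the submitters' processing notes) are named, without versions, and which of the methods was used is unknown here. The values were used as deposited, without a filter. Of 45101 probe sets, 64 controls were left out. In the platform annotation 34945 had 1 symbol, 932 several and 9160 none, and 22 members had a second probe set. Array medians ran from 3.58 to 3.89, no 2 arrays were identical, and the number of lines limits the precision.

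Fits used limma 3.58.1 in R 4.3.3 (lmFit, eBayes) with Benjamini-Hochberg adjustment over 45037 probe sets and a threshold of 0.05: other prefix against PPT, the EMT score, their interaction (mouse as a random block through duplicateCorrelation) and an F-test between 5 mice. Likeness, spread and single-line contrasts are descriptions with no test. The fits were tested on simulated data. Alternatives were another normalization, a filter, other blocks and covariates, other scores, and each mouse or line left out. Those within 1 side of the gap in the score and without PPT-15272 or ASC-5193 were added after seeing the data. Descriptions used Python 3.11.15, pandas 2.3.3, SciPy 1.17.1 and matplotlib 3.10.9. Probe sets are not checked for binding to related genes.

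The members and lists were chosen with earlier results of these data known. Named with values were members that passed a fit, the core targets and both regulators, the 10 members with the largest SD, the 8 other genes most like the core mean, and up to 8 pathway genes per fit; further members were named after their values were seen. Bez235 response and genotype are not in the sample labels, so lines were not grouped by them. A further part of the listed genotypes is not reported here.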

Additional observations from a re-analysis of the deposited data

Results flagged for a closer look

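Of 74 sets of 4 values (37 members in the 4 lines of mouse 15272 and of mouse 53631), 6 held 1 line far from the other 3, its gap to the nearest being too large a share of the whole range by Dixon's 95% critical value. For independent sets of normal values, chance alone gives about 1 in 20. The 74 sets reuse the arrays of the same lines, and the share over all probe sets was not computed. The count is therefore a description only. Gsta4 was 8.73 in PPT-15272 and 11.58 to 12.12 in the other lines of its mouse. Pgd was 11.64 in LN1-15272 and 11.17 to 11.25 in the others. Taldo1 was 10.15 in B-152727 and 10.72 to 10.80 in the others. Gpx2 was 5.32 in HEP2-53631 and 4.10 to 4.30 in the others. Gstt2 was 7.25 in HEP2-53631 and 5.19 to 5.35 in the others. Sod2 was 9.93 in B-53631 and 9.73 to 9.75 in the others, a difference of small size. Each value is 1 array without a repeat.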

How the results depend on the processing

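The prefix fit made 0 calls under all alternatives run, and the interaction was fitted in 1 way alone. With the score, the array held 4619 calls. It held 2528 with the Gapdh 3′ minus 5′ signal as a covariate, 2832 with 1 mean per mouse, 2799 with the epithelial genes alone as the score, 35 with the mouse as a fixed block, 28 in the 17 lines above the gap and 0 in the 6 below it. With 1 mouse left out in turn it held 3064 (without mouse 53631) to 5019. The 8 member calls became 0 under the fixed block and 0 on either side of the gap, and 6 to 10 under each other alternative. With 1 mean per mouse the 6 were Slc7a11 and 5 of the 8, without Gclc, Gsr and Gpx2. All 244 alternative slopes followed for the 8 kept the upward direction. The slopes within the 6 lines below the gap are not among these 244, so their direction is not covered. Between mice, the array held 1322 calls, and 533 to 4901 with 1 line left out (4901 without PPT-5193, 533 without HEP-5123). The count of members called there was 0, and 0 to 5 with 1 line left out. The causes were not tested. Counting each line as independent gave 5895 calls with the score, of which 9 were members.

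Of the 37 slopes, 12 had the other sign under the fixed mouse block, 10 in the 17 lines above the gap and 4 with the Gapdh covariate, none of them a member called over all 23 lines. In log2 per unit of score, under the fixed block they were 0.28 for Gpx3, 0.11 for Hmox1, 0.020 for Keap1, -0.52 for Nqo1, -0.10 for Slc7a11, -0.28 for Mgst1, -0.16 for Gstm5, -0.053 for Mgst2, 0.071 for Cat, -0.022 for Gstp1, -0.018 for Sod1 and -0.0078 for Mgst3. In the 17 lines above the gap they were 0.018 for Gpx3, 0.25 for Hmox1, 0.015 for Keap1, 0.10 for Srxn1, 0.038 for Txnrd1, 0.13 for Taldo1, -0.21 for Gstm5, 0.022 for Sod2, -0.010 for Mgst1 and 0.0043 for Fth1. With the Gapdh covariate they were 0.0034 for Gpx3, 0.013 for Keap1, -0.020 for Gstm5 and -0.16 for Nqo1. The other alternatives were followed for 21 members. With the epithelial genes alone they were 0.10 for Gpx3, 0.016 for Hmox1, 0.0099 for Keap1 and -0.11 for Nqo1, and with Cdh1 alone -0.039 for Nqo1. By second probe sets they were -0.034 for Gclm, 0.0099 for Keap1 and 0.071 for Txnrd1. Nqo1 was -0.0016 after median centring and -0.016 with the filter on dim probe sets. Keap1 was 0.015 after quantile normalization, 0.0018 without a block and 0.0021 without PPT-15272. Hmox1 was 0.0031 with the prefix as a covariate and 0.026 without ASC-5193. With 1 mouse left out, slopes ran from -0.10 to 0.078 for Gpx3, -0.10 to 0.034 for Hmox1, -0.015 to 0.0073 for Keap1 and -0.15 to 0.13 for Nqo1.

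The fixed mouse block is the paired analysis by mouse, with the number in a line's name taken as the mouse. It made 0 calls with the prefix.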
